A study of Mus musculus with 7 samples.

Results

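The 10 genes described here are Atf4, Atf3, Ddit3, Chac1, Trib3, Asns, Psat1, Phgdh, Psph and Shmt2, taken by name from a table of 46959 features measured in activated mouse splenic B cells. They belong to the stress program of the transcription factor ATF4 and to the pathway that builds serine and passes its carbon to folate. RNA of 4 cultures with the genotype cKO MED1 was set against RNA of 3 wild-type (WT) cultures. Purified splenic B cells of both genotypes had been cultured for 4 days with lipopolysaccharide (LPS, 1 µg/mL), a bacterial activator of B cells, and interleukin 4 (IL-4, 20 ng/mL), and total RNA was sequenced after removal of ribosomal RNA. The labels name Med1, a subunit of the Mediator complex that links bound transcription factors to RNA polymerase II. They give neither the Cre driver, the strain, the sex nor the age of the mice, nor whether replicates came from separate animals. By sex chromosome transcripts (below), cKO MED1 replicate 3 was male and replicates 1, 2 and 4 were female, so these 4 were not all of 1 animal. The spread behind each p-value is that between these 7 libraries and may still be technical in part. The series title places the question at expression and hypermutation of the immunoglobulin heavy chain genes.

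ATF4 is made when the translation factor eIF2 is phosphorylated by one of its kinases, which sense unfolded proteins in the endoplasmic reticulum, uncharged tRNA, double-stranded RNA or a lack of heme. ATF4 then binds DNA as a dimer with other basic leucine zipper (bZIP) proteins at C/EBP-ATF response elements and raises genes of amino acid synthesis, amino acid transport and tRNA charging. PHGDH, PSAT1 and PSPH turn the glycolytic intermediate 3-phosphoglycerate into serine, and SHMT2 turns serine into glycine in mitochondria and hands the released carbon to folate. Dividing lymphocytes draw on serine for purines, glycine and thymidylate.

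The response element was looked for as TGATGNAA on both strands of the promoter windows that RefSeq (GRCm38.p6) gives for all 10 genes, each from 250 bases before to 50 bases after an annotated start. It was found in the windows of 4 genes, Atf3, Chac1, Trib3 and Asns, which are shown because the element is the known site of ATF4 binding. The lines give each match in capitals with up to 25 bases on either side, 5′ to 3′ on the gene's strand. None runs further than 30 bases past the start.
Atf3 (chr1:191183411-191183468, minus strand): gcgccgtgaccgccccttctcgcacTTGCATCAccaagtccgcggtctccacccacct
Chac1 (chr2:119351024-119351081, plus strand): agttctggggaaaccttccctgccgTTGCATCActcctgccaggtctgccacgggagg
Trib3 (chr2:152344031-152344071, minus strand): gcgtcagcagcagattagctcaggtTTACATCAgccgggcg
Asns (chr6:7693200-7693257, minus strand): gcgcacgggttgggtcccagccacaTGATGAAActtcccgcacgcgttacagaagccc

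The match began 110 bases before the start in Atf3, 193 bases before it in Chac1 and 23 bases before it in Asns, and 15 bases after it in Trib3. In Atf3, Chac1 and Trib3 the element lay on the strand opposite to the gene. Of all 32851 promoter windows in the table, 3.97% held a match, and of the 14405 windows of genes tested here 2.4% did. The windows of Atf4, Ddit3, Psat1 (which has 2), Phgdh, Psph and Shmt2 held none, which says only that these letters are not in that stretch. The E-box CACGTG was in 7.15% of all windows, in 9.36% of the windows of genes tested here and in none of the 11 windows of the 10 genes. With only 11 windows, none is near these shares.

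Reads assigned to genes ranged from 31937372 to 49603193 in the cKO MED1 libraries and from 54736580 to 61149274 in the WT libraries, so every cKO MED1 library was shallower. Med1 itself stood at 2361 ± 186 normalised reads (SD, n = 4) in cKO MED1 and 4379.5 ± 326 (SD, n = 3) in WT, and 53.9% of the WT level remained. Normalised reads are reads scaled with TMM factors to a common library of 48019763 reads. Genotype and sex were nearly the same split. Ddx3y, on the Y chromosome, had 4470 normalised reads in cKO MED1 replicate 3 and at most 4.07 in the other 3 cKO MED1 libraries, against 4500 to 4900 in all WT libraries, and WT replicate 2 also held 1240 reads of Xist. The mitochondrial ribosomal RNA gene mt-Rnr2 took 21.0% to 35.5% of reads in cKO MED1 and 17.7% to 22.5% in WT. All 7 B cell markers summed here, among them Ms4a1, Cd79a and Pax5, were present, with 106608.4 to 116970.5 summed normalised reads in cKO MED1 and 147081.4 to 160929.5 in WT, and 5 of them were called lower. Summed markers of T cells (229 to 309 reads in cKO MED1 and 224 to 305 in WT) and of macrophages and monocytes (570.3 to 816 and 436.5 to 704) were low in every library. Summed markers of plasma cells, the antibody-secreting descendants of B cells, were at 59845.0 to 82564.6 in cKO MED1 and 81756.5 to 124143 in WT, with 2 of 6 higher and 2 lower, and those of stromal and endothelial cells at 1092 to 1349 and 1415 to 1669, with 2 of 8 higher and 1 lower. Summed neutrophil markers were higher in every cKO MED1 library (169 to 285.5) than in any WT library (111 to 138), with 1 of 2 tested called higher, while those of erythroid cells (154 to 511 in cKO MED1 and 147 to 255 in WT) and of NK cells (86.7 to 263 and 170.5 to 266) overlapped. A list of 28 neuronal and muscle genes that B cells should not use had 13 higher and 1 lower call among 23 tested. Its summed normalised reads overlapped, at 2269.7, 2139.5, 2765.7 and 4635.7 in cKO MED1 replicates 1 to 4 and 2754.7, 3547.2 and 2507.8 in WT replicates 1 to 3. The mean log2 value of its tested genes, in which genes of few reads weigh as much as others, went differently. Relative to WT it stood at 0.7, 1.03, 1.87 and 2.78 in cKO MED1 replicates 1 to 4 and -0.96, 0.55 and 0.41 in WT replicates 1 to 3. WT replicate 1 and cKO MED1 replicate 4 were therefore the ends of this log2 scale, but WT replicate 1 was not an end of the sums. The part of sex, of these marker lists or of this scale in the results below was not tested except where a fit is named.

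The genes of serine synthesis were called lower in cKO MED1 and, of the 6 stress genes, 1 rose and 5 did not pass the test. Psat1, Phgdh, Psph and Shmt2 fell to between 67.2% and 74.3% of their WT means, Ddit3 rose to 134.1%, and Atf4, Atf3, Chac1, Trib3 and Asns stood between 74.5% and 100.3%. Trib3 (74.5%) and Asns (75.8%) lay close to Psph (74.3%), on the other side of the threshold. A difference between the serine genes and the stress genes was not tested. All 10 genes were tested with limma on log2(normalised reads + 1), with Benjamini-Hochberg adjustment over all 18062 tested genes and a threshold of 0.05. So 4 of 10 were called lower, where 14.6% of all tested genes were, and 1 of 10 was called higher, where 13.4% were. Calls in the lower direction were more frequent among abundant genes: among the 6021 tested genes with the highest means, from 932 normalised reads upwards, 27.8% were lower and 5.6% higher. They include 6 of the 10 genes. The median log2 fold change was -0.4 over the 10 genes, 0.04 over all tested genes and -0.15 over those 6021. In bulk RNA, fewer cells that make a transcript and less of it per cell cannot be told apart.

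**Figure D1:**
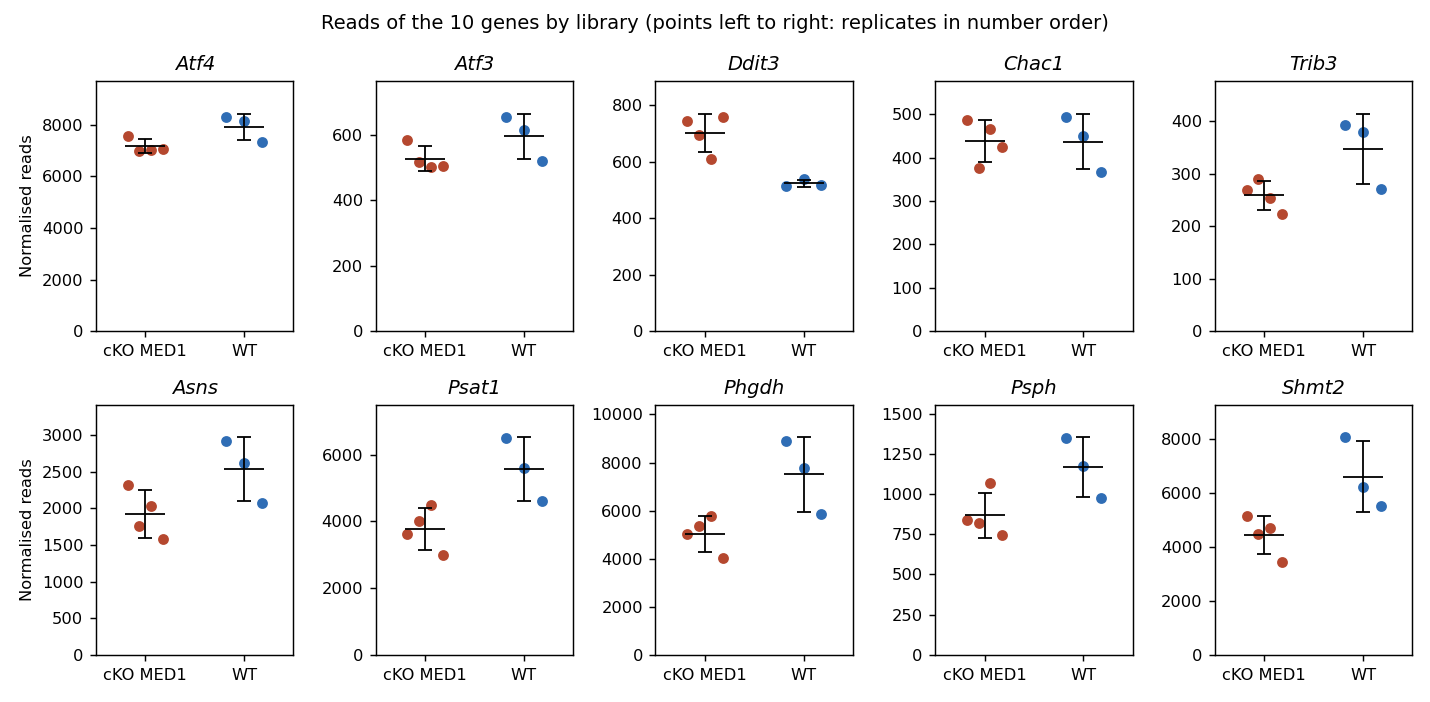
Normalised reads (y axis, from 0) of each of the 10 genes in the 4 cKO MED1 libraries and the 3 WT libraries; points are libraries in replicate order and bars are mean ± SD. The cKO MED1 points of Psat1, Phgdh and Shmt2 all lie below the WT points, and those of Ddit3 all lie above them.

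Phgdh, the dehydrogenase of the first step of serine synthesis, had 5020.4, 5363, 5776 and 4009.8 normalised reads in cKO MED1 replicates 1 to 4, against 8902, 7762 and 5851 in WT replicates 1 to 3. Every cKO MED1 library lay below every WT library, but WT replicate 3 was only just above cKO MED1 replicate 3. The means were 5042 ± 755 (SD, n = 4) in cKO MED1 and 7505 ± 1542 (SD, n = 3) in WT, which is -0.57 on the log2 scale with an SE of 0.15 (limma adjusted p = 0.0223). Phgdh (ENSMUSG00000053398.11) lies on chromosome 3 from 98313170 to 98339990 on the minus strand of GRCm38. Many processed pseudogenes match its transcript at over 90% identity, so its count may be split. The most read of them, Gm7901, with 98.7% identity over 1597 bases, fell by a like amount, with 424 ± 64.8 normalised reads in cKO MED1 (SD, n = 4) and 639 ± 108 in WT (SD, n = 3, limma adjusted p = 0.0165), and the ratio of Gm7901 to Phgdh was 0.0767 to 0.092 in cKO MED1 and 0.0814 to 0.0914 in WT.

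Psat1, the aminotransferase of the second step, had 3625, 4019, 4480.5 and 3003 normalised reads in cKO MED1 replicates 1 to 4, against 6499, 5609 and 4608 in WT replicates 1 to 3. Again the groups did not overlap, and the nearest libraries were the replicates 3 of both genotypes. The means were 3782 ± 626 (SD, n = 4) in cKO MED1 and 5572 ± 946 (SD, n = 3) in WT, a difference of -0.56 on the log2 scale with an SE of 0.15 (limma adjusted p = 0.019). Psat1 (ENSMUSG00000024640.9) lies on chromosome 19 from 15904678 to 15947337 on the minus strand.

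Psph, the phosphatase that releases serine, had 837, 821, 1068 and 743 normalised reads in cKO MED1 replicates 1 to 4 and 1347, 1177 and 976.5 in WT replicates 1 to 3. Here the groups overlapped, since cKO MED1 replicate 3 was above WT replicate 3. The means were 867 ± 140.0 (SD, n = 4) in cKO MED1 and 1167 ± 185 (SD, n = 3) in WT, and the difference of -0.43 on the log2 scale had an SE of 0.14 (limma adjusted p = 0.0398). Psph (ENSMUSG00000029446.14) lies on chromosome 5 from 129765558 to 129787449, and 10.4% of its exonic length is shared with Cct6a, a chaperonin gene on the opposite strand. Cct6a fell, with 6992.5 ± 832 normalised reads in cKO MED1 (SD, n = 4) and 11019 ± 1285 in WT (SD, n = 3, limma adjusted p = 0.00406). The sources used here do not say whether counting used strand, and without it reads of both genes in that stretch cannot be told apart.

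Shmt2, the mitochondrial enzyme that splits serine, had 5138, 4482, 4720.2 and 3459 normalised reads in cKO MED1 replicates 1 to 4, against 8075, 6229 and 5523 in WT replicates 1 to 3. All cKO MED1 libraries were below all WT libraries, and replicate 4 was the lowest. The means were 4449.8 ± 714 (SD, n = 4) in cKO MED1 and 6609 ± 1318 (SD, n = 3) in WT, a difference of -0.57 on the log2 scale with an SE of 0.15 (limma adjusted p = 0.0211). Shmt2 (ENSMUSG00000025403.5) lies on chromosome 10 from 127517123 to 127522444 on the minus strand. Over the 10 genes, 3 had no overlap with cKO MED1 below, against 19.8% of tested genes, and 1 had none with cKO MED1 above, against 19.3%.

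Ddit3, which encodes the stress factor CHOP, was the 1 gene of the 10 that rose. It had 747, 695, 608.5 and 759.5 normalised reads in cKO MED1 replicates 1 to 4, against 515, 538 and 518 in WT replicates 1 to 3. The WT libraries lay close together and every cKO MED1 library was above them. The means were 702 ± 68.5 (SD, n = 4) in cKO MED1 and 524 ± 12.3 (SD, n = 3) in WT, a difference of 0.42 on the log2 scale with an SE of 0.1 (limma adjusted p = 0.0151). Ddit3 (ENSMUSG00000025408.15) lies on chromosome 10 from 127290774 to 127296288 and shares 4% of its exonic length with Mars, the methionyl-tRNA synthetase gene on the opposite strand, which fell (3649.5 ± 262 normalised reads in cKO MED1, SD, n = 4, and 4700.4 ± 490.2 in WT, SD, n = 3, limma adjusted p = 0.022). The rise of Ddit3 depended on scaling: it was called with TMM and RLE factors, but not with the authors' own scaling (0.29, limma adjusted p = 0.0963) with total reads (0.18, limma adjusted p = 0.431) or, without the filter on low counts, in the fit of all genes (0.26, limma adjusted p = 0.184).

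Atf4 had 7580.1, 6999, 7034 and 7062 normalised reads in cKO MED1 replicates 1 to 4 and 8296, 8136 and 7351 in WT replicates 1 to 3. Of the cKO MED1 libraries only replicate 1 reached into the WT range. The log2 fold change was -0.14 with a 95% interval from -0.33 to 0.05 (limma adjusted p = 0.22). The value was not called under any alternative, but its size moved, to -0.39 with total reads, -0.28 with the authors' scaling, -0.3 without the filter on low counts, -0.25 without WT replicate 3, -0.07 with 1 surrogate variable and -0.03 with the CPM filter (limma adjusted p from 0.0937 to 0.759). Atf4 (ENSMUSG00000042406.8) lies on chromosome 15 from 80255184 to 80257541. ATF4 is regulated largely by translation, which RNA levels do not show. Atf3, a stress factor of the same bZIP family, had 585, 518, 502 and 505 normalised reads in cKO MED1 replicates 1 to 4 and 654, 614.5 and 519.8 in WT replicates 1 to 3, and the groups overlapped (ENSMUSG00000026628.13, chromosome 1, 191170296 to 191218039; log2 fold change -0.17, 95% interval -0.41 to 0.07, limma adjusted p = 0.241).

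Chac1, whose product breaks down glutathione, gave the smallest difference. It had 488, 376, 465 and 425 normalised reads in cKO MED1 replicates 1 to 4 and 494, 450.4 and 367 in WT replicates 1 to 3, a log2 fold change of 0.01 with a 95% interval from -0.28 to 0.29. The libraries of both genotypes were mixed through the same range, and the sign changed with scaling. Chac1 (ENSMUSG00000027313.3) lies on chromosome 2 from 119351229 to 119354381. Trib3, a pseudokinase gene that restrains this program, had 269.7, 289.5, 254 and 223 normalised reads in cKO MED1 replicates 1 to 4 and 393, 379 and 271 in WT replicates 1 to 3, so cKO MED1 replicate 2 overlapped with WT replicate 3 (log2 fold change -0.41, 95% interval -0.74 to -0.08, limma adjusted p = 0.0596). Asns, asparagine synthetase, had 2325, 1753, 2035 and 1585 normalised reads in cKO MED1 replicates 1 to 4 and 2925, 2614.5 and 2073.5 in WT replicates 1 to 3, and cKO MED1 replicate 1 lay within the WT range (log2 fold change -0.4, 95% interval -0.72 to -0.08, limma adjusted p = 0.0576). Trib3 (ENSMUSG00000032715.9, chromosome 2, 152337422 to 152344032) and Asns (ENSMUSG00000029752.12, chromosome 6, 7675169 to 7693254) missed the threshold here, with unadjusted p of 0.0187 and 0.0177 by limma, and were called lower with the authors' scaling (-0.54 and -0.53, limma adjusted p = 0.0262 and 0.0274) and by DESeq2 (-0.43 and -0.41, adjusted p = 0.0425 and 0.0298).

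**Figure D2:**
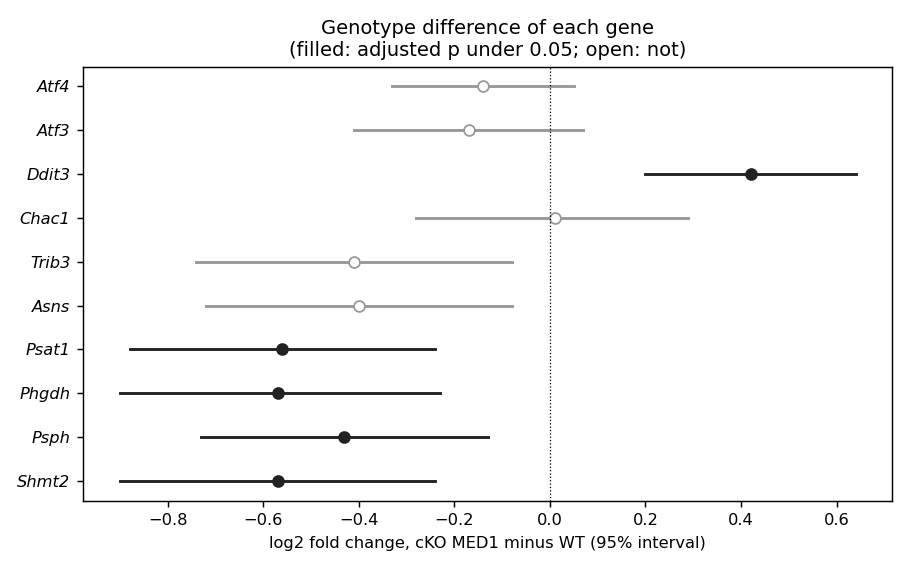
Log2 fold change of each gene, cKO MED1 minus WT (x axis), with its 95% interval from limma; filled points passed an adjusted p of 0.05 and open points did not. The serine genes Psat1, Phgdh, Psph and Shmt2 lie between -0.57 and -0.43, Ddit3 lies at 0.42, and the interval of Atf4 includes 0.

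Libraries of 1 genotype differed from each other in the same way for most of the genes. WT replicate 1 was the highest WT library for 9 of the 10 genes and WT replicate 3 the lowest for 9. cKO MED1 replicate 4 was the lowest cKO MED1 library for 6. These orders were not counted over all genes. The axis of largest variation over all tested genes held 71.5% of their variance. WT replicate 1 (-100.4) and cKO MED1 replicate 4 (106.1) were its ends. The mean of Phgdh, Psat1, Psph and Shmt2, taken as log2 relative to WT, stood at -0.49, -0.49, -0.31 and -0.83 in cKO MED1 replicates 1 to 4 and 0.26, 0.01 and -0.27 in WT replicates 1 to 3. The replicates 3 of both genotypes, -0.31 in cKO MED1 and -0.27 in WT, were thus close together. By Ddx3y, cKO MED1 replicate 3 was the 1 male library of its genotype. All WT libraries had reads of Ddx3y as well, both the near replicate 3 and replicates 1 and 2, which stood further away at 0.26 and 0.01. The part of sex in these distances was not tested.

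**Figure D3:**
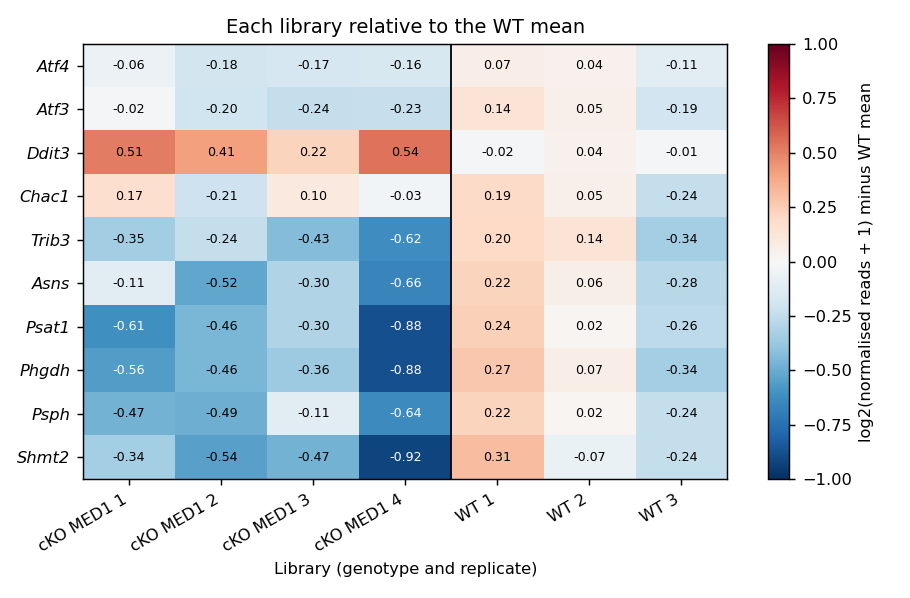
Colour and number give log2(normalised reads + 1) minus the WT mean, for each gene (rows) in each library (columns, cKO MED1 left of the line and WT right of it). The 4 serine genes are negative in all cKO MED1 libraries, most of all in replicate 4, and also in WT replicate 3.

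The calls of the 4 serine genes ended when either WT replicate 1 or cKO MED1 replicate 4 was left out, while without WT replicate 3 the lower calls were 6. Leaving out a library also leaves fewer to test with. Without WT replicate 1 none of the 10 genes was called by limma, and the log2 fold changes of Psat1, Phgdh, Psph and Shmt2 were -0.49, -0.48, -0.37 and -0.46 (adjusted p = 0.0696, 0.0814, 0.132 and 0.0804). Without cKO MED1 replicate 4 they were -0.43, -0.44, -0.34 and -0.43 (adjusted p = 0.0502, 0.0601, 0.121 and 0.0506). The call of Psph also ended without WT replicate 2 (adjusted p = 0.0621), without cKO MED1 replicate 1 (0.0532) and without cKO MED1 replicate 2 (0.0933). Ddit3 was not called without WT replicate 1, 2 or 3 (0.36, 0.38 and 0.36, limma adjusted p = 0.103, 0.0604 and 0.0635). It was still called without cKO MED1 replicate 4 (0.4, limma adjusted p = 0.0267). With the sex of the library as a covariate, where only cKO MED1 replicate 3 shares the sex of WT, no gene of the 10 was called, and none had an unadjusted p under 0.05. The log2 fold changes were then -0.3 for Psat1, -0.36 for Phgdh, -0.11 for Psph, -0.47 for Shmt2 and 0.22 for Ddit3. With 1 surrogate variable the values were -0.33 for Psat1, -0.29 for Phgdh, -0.3 for Psph, -0.17 for Shmt2 and 0.41 for Ddit3, and none was called. With a per-kb background subtracted, Psat1, Phgdh, Psph and Shmt2 were at -0.56, -0.57, -0.45 and -0.57, as large as without it, but their limma adjusted p were 0.0573, 0.0647, 0.0884 and 0.0628. In all these fits the direction of the 5 called genes was kept.

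**Figure D4:**
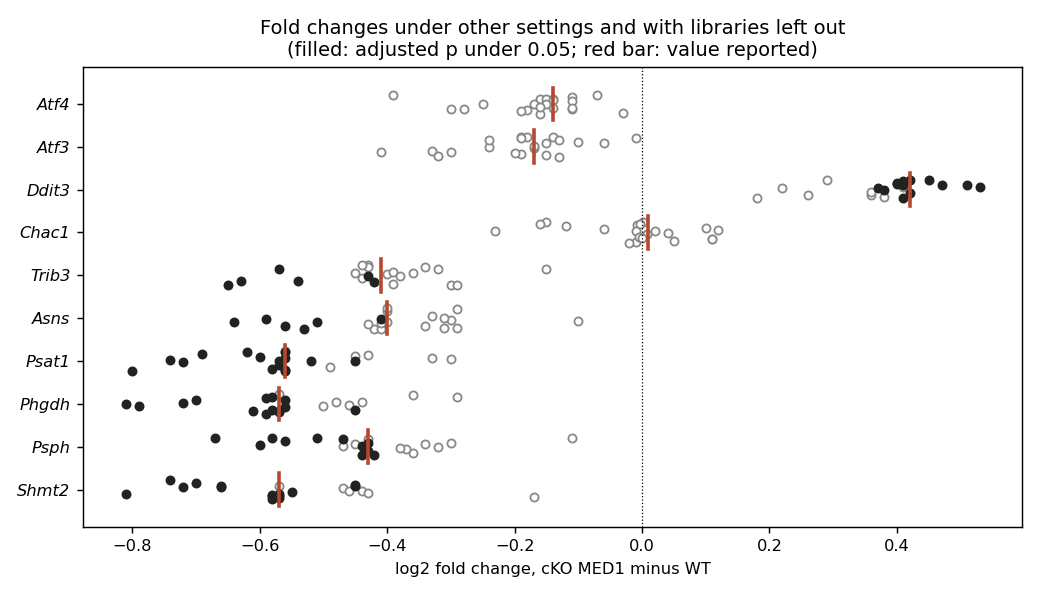
Log2 fold change of each gene (x axis) under each other setting or with a library left out; filled points passed an adjusted p of 0.05, and the red bar is the value reported. Psat1, Phgdh, Psph and Shmt2 stay below 0 and Ddit3 above 0 throughout, while Chac1 lies on both sides of 0.

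Ratios within a library do not depend on scaling, but they do depend on the gene divided by. Atf4 itself was not called but stood lower in cKO MED1, at -0.14 and from -0.39 to -0.03 in the alternatives. That raises a ratio to Atf4 in cKO MED1. How many of all genes have such a ratio without overlap was not counted. Reads of Ddit3 per read of Atf4 were 0.0985, 0.0993, 0.0865 and 0.108 in cKO MED1 replicates 1 to 4 and 0.0621, 0.0661 and 0.0705 in WT replicates 1 to 3, without overlap. Reads of Shmt2 per read of Atf4 were 0.678, 0.64, 0.671 and 0.49 in cKO MED1 replicates 1 to 4 and 0.973, 0.766 and 0.751 in WT replicates 1 to 3, also without overlap. For Phgdh, Psat1 and Psph the ratio to Atf4 overlapped between genotypes, because it was higher in cKO MED1 replicate 3 than in WT replicate 3 (0.821 and 0.796 for Phgdh). The ratios of Atf3, Chac1, Trib3 and Asns to Atf4 overlapped as well.

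Levels per kb of exon, from normalised reads, put Atf4 first in both genotypes, at 3040.2 ± 117 in cKO MED1 (SD, n = 4) and 3362 ± 214 in WT (SD, n = 3). Phgdh followed with 2028 ± 304 in cKO MED1 and 3019 ± 620.1 in WT, so that in WT the levels of these 2 genes did not differ beyond their spread. Next came Shmt2 (1431 in cKO MED1 and 2126 in WT), Psat1 (889 and 1309.9), Asns (704 and 928) and Ddit3 (410.0 and 306 per kb). The remaining 4 lay between 122 and 268 per kb in cKO MED1 and between 164 and 277 in WT, with Trib3 lowest in both. Exonic length is the union of all annotated exons, so levels of genes with rarely used exons are understated.

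Upstream of ATF4, the eIF2 genes went lower in part. Of 22 tested genes for eIF2 kinases, phosphatases and regulators, 11 fell and 0 rose by limma, with a median log2 fold change of -0.3. Over all tested genes 14.6% were lower and 13.4% higher with a median of 0.04, and over the 6021 most abundant 27.8% were lower and 5.6% higher with a median of -0.15. The same shares are the background for the lists that follow. Without adjustment 1 was higher at p under 0.05, and both edgeR and DESeq2 gave 0 higher. The fall included all 5 subunit genes of eIF2B, the exchange factor that phosphorylated eIF2 blocks, led by Eif2b1 (817 ± 54.9 normalised reads in cKO MED1, SD, n = 4, and 1249.9 ± 179.6 in WT, SD, n = 3; log2 fold change -0.61, limma adjusted p = 0.004). On the log2 scale Eif2b2 fell by 0.51, Eif2b4 by 0.55 and Eif2b5 by 0.45 (limma adjusted p = 0.00583, 0.00758 and 0.0114). None of the 4 eIF2 kinase genes passed. Eif2ak3, the kinase PERK of the endoplasmic reticulum, stood at 2670.2 ± 148 in cKO MED1 and 2323 ± 200.2 in WT (0.2, adjusted p = 0.105), Eif2ak2, the double-stranded RNA sensor PKR, at 4796 ± 1107 and 6228 ± 196 (-0.41, 0.0623), Eif2ak1 at 1638 ± 186.5 and 1845.5 ± 107 (-0.18, 0.2), and Eif2ak4, the amino acid sensor GCN2, at 1865 ± 169 and 1919 ± 52.5 (-0.05, 0.726). Ppp1r15a, whose product helps remove the phosphate from eIF2, did not pass either (0.19, limma adjusted p = 0.248). Without WT replicate 1, 3 genes of this list were called lower, without cKO MED1 replicate 4 it was 4, and with sex as a covariate 0 were.

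Of 20 tested bZIP genes whose products can pair with ATF4 or compete with it, 5 rose, where 13.4% of all tested genes did, and 3 fell, which is near the background of 14.6%, and the median was 0.02. Batf3 rose most surely, with 458 ± 94.7 normalised reads in cKO MED1 (SD, n = 4) and 219.8 ± 24.8 in WT (SD, n = 3), a log2 fold change of 1.04 (limma adjusted p = 0.0022). Jdp2 (0.72) and the small Maf gene Maff (0.89) rose and Jund (-0.42) fell (limma adjusted p = 0.00992, 0.0107 and 0.0185). Cebpb and Cebpg, for C/EBP proteins that pair with ATF4, did not pass (-0.17 and -0.18, limma adjusted p = 0.457 and 0.125). Without WT replicate 1 the list held 2 higher calls and 1 lower.

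Of 36 other tested ATF4 target genes, 6 fell and 2 rose, with a median of -0.19. The falls were those of the tRNA synthetase genes Wars, Nars and Gars, the tRNA exporter gene Xpot, the arginine transporter gene Slc7a1 and Stc2. Wars had 1371 ± 185 normalised reads in cKO MED1 (SD, n = 4) and 2115 ± 241 in WT (SD, n = 3), a log2 fold change of -0.63 (limma adjusted p = 0.00529), and Xpot and Slc7a1 changed by -0.4 and -0.51 (adjusted p = 0.0175 and 0.0239). Stbd1 (1.71, limma adjusted p = 0.0202) and Nupr1 rose, both at low levels: Stbd1 averaged 26.9 ± 6.31 reads in cKO MED1 and 8.13 ± 4.33 in WT. The share of 6 in 36 was near the background of 14.6%, and it was 2 without WT replicate 1, 2 without cKO MED1 replicate 4 and 11 by DESeq2.

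**Figure D5:**
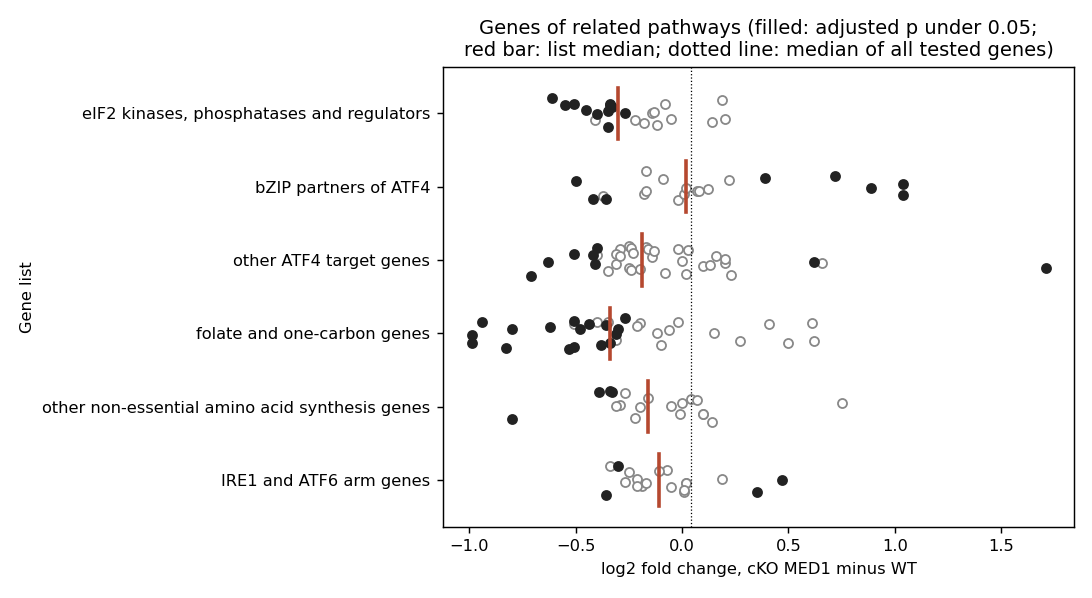
Log2 fold change, cKO MED1 minus WT (x axis), of the tested genes of 6 related gene lists (rows, the 10 genes left out); filled points passed an adjusted p of 0.05 and the red bar is the list's median. Folate and one-carbon genes have the lowest median, -0.34, with 17 of 33 lower and 0 higher.

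Genes that carry the one-carbon unit onwards included many that fell. Of 33 tested folate and one-carbon genes, 17 fell and 0 rose by limma, with a median of -0.34, where 14.6% of all tested genes and 27.8% of the 6021 most abundant were lower. Without adjustment 3 were higher at p under 0.05, while edgeR called 1 higher and DESeq2 called 0. Shmt1, the cytosolic counterpart of Shmt2, had 916, 934, 1026 and 648 normalised reads in cKO MED1 replicates 1 to 4, against 2165, 1669.5 and 1413 in WT replicates 1 to 3, a difference of -0.99 on the log2 scale with an SE of 0.17 (limma adjusted p = 0.00331). Its groups lay well apart. On the log2 scale Gart and Atic, for enzymes that use formyl folate in purine synthesis, fell by 0.99 and 0.8, the folate enzyme gene Mthfd1 by 0.83 and the folate carrier gene Slc19a1 by 0.94 (limma adjusted p = 0.00224, 0.0028, 0.00263 and 0.00223). Gart averaged 1945 ± 331 normalised reads in cKO MED1 (SD, n = 4) and 3874 ± 792 in WT (SD, n = 3). Of the mitochondrial folate genes named whatever their result, Mthfd1l passed (-0.3, limma adjusted p = 0.047), and Mthfd2 (-0.35, 0.0633) and Aldh1l2 (-0.02, 0.907) did not. Other genes of the list with mitochondrial products were mixed. Slc25a32, Gcsh, Dld and Sfxn1 were called lower (-0.51, -0.44, -0.34 and -0.31, limma adjusted p = 0.00623, 0.0396, 0.0441 and 0.0333). Mthfd2l, Mtfmt, Amt and Sfxn3 were not called (-0.06, -0.2, 0.5 and 0.27). Without WT replicate 1, 8 genes of the list were called lower, without cKO MED1 replicate 4 it was 12, and with sex as a covariate 0.

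Among 19 tested genes for the synthesis of other non-essential amino acids 4 fell and 0 rose by limma, with a median of -0.16. That count of lower genes lies between the shares of 14.6% over all tested genes and 27.8% over the 6021 most abundant, so it is near the background. Without adjustment 1 was higher at p under 0.05, and 0 with edgeR and with DESeq2. Ass1, argininosuccinate synthase, fell most surely, with 741, 817, 823 and 798 normalised reads in cKO MED1 replicates 1 to 4, against 1439, 1228 and 1504 in WT replicates 1 to 3 (log2 fold change -0.8, limma adjusted p = 0.000426). The proline enzyme gene Pycrl (-0.39) and the aspartate aminotransferase genes Got1 (-0.34) and Got2 (-0.33) fell as well (limma adjusted p = 0.0235, 0.0278 and 0.043). Without WT replicate 1, without cKO MED1 replicate 4, or with sex as a covariate, 1 gene of this list was called lower.

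In the other arms of the unfolded protein response 2 of 19 tested genes rose and 2 fell, with a median of -0.11, and both counts lie below the shares over all tested genes, 13.4% higher and 14.6% lower. The sensor genes Atf6 and Ern1 rose, by 0.35 and 0.47 as log2 (limma adjusted p = 0.0173 and 0.0244), with 8468 ± 485 and 1653 ± 237 normalised reads in cKO MED1 (SD, n = 4), against 6621 ± 401.5 and 1189.8 ± 159 in WT (SD, n = 3). Dnajb11 (-0.36) and Atf6b (-0.3) fell (adjusted p = 0.0392 and 0.0402). Hspa5, the chaperone BiP, and Xbp1 did not pass (-0.07 and -0.34, limma adjusted p = 0.705 and 0.0705). Without WT replicate 1 no gene of this list was called in either direction.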

How the data were processed

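The authors deposited 1 table of signal per gene for 7 libraries, reads divided by 1 size factor per library: 100% of values were whole multiples of their library's smallest step (tolerance 1e-06), so whole reads were recovered. The tools listed, per the submitters' processing notes, are DESeq2, R 3.4, Subread 1.5.0-p3, STAR 2.4.0a and featureCounts, with GRCm38 (mm10) as the build; their order and settings are not given. The phiX spike-in was left out (at most 0.000383% of reads). The 18062 genes that pass filterByExpr were scaled with TMM factors (edgeR 4.0.16) and tested with limma 3.58.1 (R 4.3.3, trend) on log2(normalised reads + 1), cKO MED1 minus WT, two-sided, at an adjusted p of 0.05. edgeR's quasi-likelihood test on recovered reads called 2675 genes higher and 2665 lower, limma 2419 and 2646. On simulated reads of these 18062 genes limma found 16.4% of 67 genes changed by 0.5 (log2), 58.2% of 67 changed by 1 and 80.3% of 66 changed by 2, and made 7 false calls. Positions and exonic lengths come from GENCODE M21 on GRCm38. Intervals and SD cover these libraries only.

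The 10 genes and the lists were chosen with earlier results of these data known. One item of the B cell marker list is not reported here, and the list was summed without it. Named were the 10 genes, Med1, up to 4 called genes per list with the smallest adjusted p, and 13 fixed genes whatever their result. Others (Nars, Gars, Stc2, Nupr1, Slc25a32, Gcsh, Dld, Sfxn1, Mthfd2l, Mtfmt, Amt, Sfxn3, Cct6a, Mars and Gm7901) were named after their values were seen. Copies were sought with BLAST at 90% identity over 150 bases. Alternatives were RLE factors, total reads, the authors' scaling, DESeq2 1.42.0, edgeR, limma-voom, a pseudocount of 5, unfiltered genes, genes with CPM 1 or more in 3 libraries, the replicate number as a block, sex, 1 surrogate variable (sva 3.50.0), background subtraction, a threshold of 0.01 and libraries left out.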

Additional observations from a re-analysis of the deposited data

Results flagged for a closer look

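Atf4 in cKO MED1 was marked because replicate 1, at 7580.1 normalised reads, stood apart from the other 3 cKO MED1 libraries: its gap to the nearest of them was 0.89 of the group's range, above Dixon's value of 0.829 for 4 samples. It was 1 of 11 genes looked at in this way (the 10 genes and Med1), and chance marks about 1 group in 20. The WT group of 3 is too small for this rule.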

How the results depend on the processing

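The 10 genes gave 1 higher and 4 lower calls. The count of higher calls was 0 with total reads, the authors' scaling, no filter, sex, 1 surrogate variable and a threshold of 0.01, and 0 to 1 when 1 library was left out. The count of lower calls was 2 without cKO MED1 replicates 3 and 4, 0 with sex, 1 surrogate variable, background subtraction or a threshold of 0.01, and 0 to 6 when 1 library was left out. Over all genes, where 2419 were higher and 2646 lower, the counts were 109 and 119 with sex, 130 and 111 with 1 surrogate variable, 869 and 1276 without cKO MED1 replicates 3 and 4, 513 and 794 at 0.01, and 527 to 3012 and 1029 to 3114 when 1 library was left out. Total reads gave 4371 lower, the CPM filter 1624 lower and background subtraction 1031 higher; the cause was not tested. Higher calls made up 47.8% of the calls, 37.3% with the authors' scaling and 31.8% with total reads; over all genes the median log2 fold change, 0.04 with TMM, was -0.1 and -0.2 under these. The direction of Chac1 turned with RLE factors (-0.0077), total reads (-0.23), the authors' scaling (-0.12), no filter (-0.15), DESeq2 (-0.01), limma-voom (-0.0028), background subtraction (-0.0047) and without cKO MED1 replicates 3 and 4 (-0.01), and it ran from -0.16 to 0.11 when 1 library was left out. The other 9 genes kept their direction in all 22 alternatives. Lower calls ranged from 0 to 13 for the eIF2 list, 0 to 4 for bZIP partners, 0 to 17 for other ATF4 targets, 0 to 23 for folate genes, 1 to 8 for other amino acid synthesis and 0 to 5 for the other arms. Higher calls ranged from 0 to 1, 1 to 5, 0 to 3, 0 to 1, 0 to 1 and 0 to 2 in the same lists.

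With the replicate number as a block, 1 of the 10 genes was called lower (Shmt2) and 1 higher. Same-numbered libraries gave correlations of their deviations of 0.515, -0.235 and 0.163, so the numbers were not taken to pair the samples, and cKO MED1 replicates 2 and 3 did not correlate best with their own number.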

Other observations

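The mitochondrial and cytosolic serine hydroxymethyltransferase genes were unequally lower. Reads of Shmt2 per read of Shmt1 were 5.61, 4.8, 4.6 and 5.34 in cKO MED1 replicates 1 to 4, against 3.73, 3.73 and 3.91 in WT replicates 1 to 3, so every cKO MED1 library was above every WT library. The ratio needs no scaling between libraries, was picked after its values were seen and was not tested. Reads of Ddit3 per read of Trib3 were 2.77, 2.4, 2.39 and 3.4 in cKO MED1 replicates 1 to 4, against 1.31, 1.42 and 1.91 in WT replicates 1 to 3, also without overlap. This pair joins the 1 gene called higher with a gene of negative log2 fold change (0.42 and -0.41). The choice of the pair therefore favoured a ratio without overlap, and it was not tested either.

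The genes whose log2 values over the 7 libraries were most like those of Atf4 were Atxn7l2, Srd5a3 and Klhl14, of which Klhl14 was called lower (-0.42, limma adjusted p = 0.0466). Those most like the mean of Phgdh, Psat1, Psph and Shmt2 were Psmd9, Ciapin1 and Rad51ap1, all called lower (-0.34, -0.45 and -0.35, limma adjusted p = 0.0483, 0.0371 and 0.0339). Likeness was measured by Pearson's coefficient over libraries that share depth and genotype differences. A coefficient of at least 0.9 was reached by 2.2% of 13883 genes compared with Atf4 and by 10.4% of 13880 genes compared with the serine mean.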
